A study of Mus musculus with 10 samples.

Results

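The 38 endothelial and angiogenesis genes described here are markers of blood and lymphatic endothelium together with receptors and ligands of the VEGF and angiopoietin families. They were chosen by name, with earlier results of these data known. Each was found as 1 row among the 37882 genes of the count table. The series holds RNA-seq of 10 tumours that cells of the mouse mammary carcinoma line MCa-M3C formed in the mammary gland (orthotopic tumours) of FVB/N mice. One group of 5 tumours received TMA-ARB, the angiotensin receptor blocker valsartan in a form made to act in the tumour microenvironment, at 40 mg/kg valsartan, and the control group of 5 received PBS at the same volume. Both were injected retro-orbitally into the vein once a day for 6 days, starting at a size of about 100 mm3, and the labels describe the tumours as matched in size and time. The tumours are numbered as in the sample titles, 6 to 10 for TMA-ARB and 1 to 5 for control, and each run of 5 values follows those numbers upwards. All tumours came from 1 cell line and 1 mouse strain. The age and sex of the mice and whether each tumour came from a mouse of its own are not stated in the labels, and every p-value therefore rests on library-to-library spread, which may be technical.

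Blood vessels grow when VEGF ligands bind receptors on endothelial cells, which then sprout, divide and loosen their junctions. Angiopoietins act through the Tie receptors to settle or unsettle the new vessel wall, and Notch signals between neighbouring cells decide which cell leads a sprout. Tumour vessels are often leaky and poorly covered by mural cells, and angiotensin receptor blockers are known for lowering the solid stress that compresses them.

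RNA of endothelium was found in every tumour. The 5 genes used here to define endothelium (Pecam1, Cdh5, Tie1, Esam and Emcn) summed to 246, 257, 159, 167 and 172 CPM (counts per 1000000 counts, with TMM-scaled library sizes) in TMA-ARB tumours and to 218, 344, 253, 211 and 188 CPM in control tumours. The sums overlapped, and control tumour 2 held the most. In such bulk tissue, fewer endothelial cells and less RNA per cell cannot be told apart. Prox1, which sets lymphatic identity, was at or near 0 in all but 1 tumour.

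Libraries held 12742953 to 16884621 counts, so a floor of 3 counts stood at 0.178 to 0.235 CPM, a limit that covers counting error only. Mitochondrially encoded genes took up 2.22, 3.18, 10.5, 25.0 and 11.7% in TMA-ARB tumours and 2.15, 2.07, 6.37, 6.63 and 3.75% of the counts in control tumours. The means differed by 6.31 percentage points (two-sided exact permutation test, p = 0.143, smallest possible 0.00794), with 3 TMA-ARB and 2 control tumours above 5%. Members were therefore also compared among the 5 tumours below and the 5 above that line. Summed markers of other cells ranged from 368 to 1012 CPM in TMA-ARB and 448 to 966 CPM in control tumours for mural cells (8 of 11 tested markers below 0 on the log2 fold scale). For red cells the sums were 93.6 to 473 CPM in TMA-ARB and 169 to 1442 CPM in control tumours (5 of 5 below 0), and for macrophages 695 to 5081 CPM and 1621 to 4112 CPM (7 of 10 below 0). Tumour epithelium summed to 106 to 240 CPM in TMA-ARB and 84.5 to 160 CPM in control tumours (1 of 6 below 0, median log2 fold change 1.00). An unadjusted p under 0.05 (edgeR quasi-likelihood test) was held by 3 of 11 mural and 2 of 6 epithelial markers. For red cells it was 0 of 5 and for macrophages 0 of 10. Of all tested genes 1.66% were lower and 1.59% higher at such a p. None of the markers on these lists was at 0 in every library, and their part in the results on the endothelial genes was not tested.

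Per length of gene, the junction protein gene Cldn5 stood highest among the members, at 29.1 CPM per kb in TMA-ARB and 43.5 CPM per kb in control tumours. In control tumours Plvap and Aqp1 followed at 31.7 and 26.7 CPM per kb, whereas in TMA-ARB tumours Plvap stood at 22.3 and Aqp1 at 9.91 CPM per kb. The VEGF receptors were lower, with Flt1 at 3.83 CPM per kb in TMA-ARB and 5.62 CPM per kb in control tumours, and Kdr at 2.07 and 1.66 CPM per kb in those groups. Prox1 was lowest, at 0.014 CPM per kb in TMA-ARB and 0.051 CPM per kb in control tumours. The plot of levels per kb gives the order of all 38 genes.

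**Figure D1:**
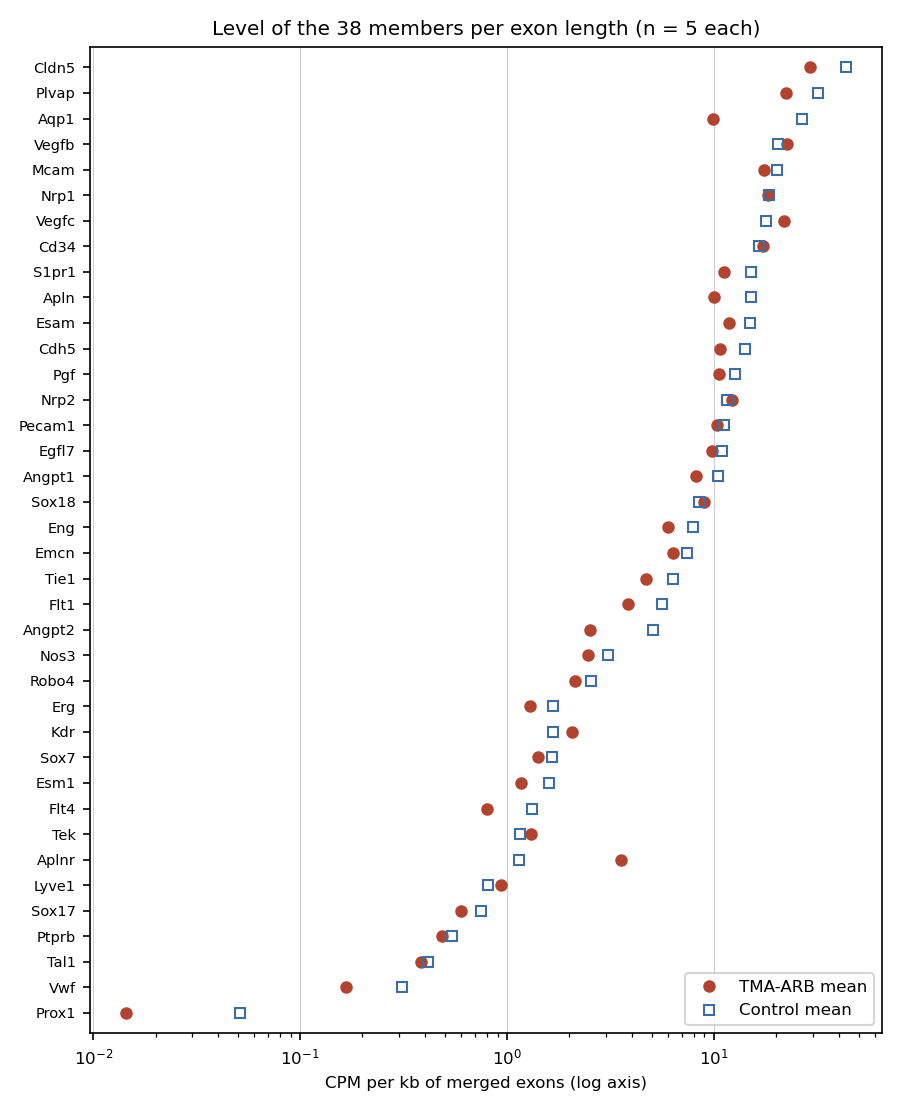
Mean level of each of the 38 members in CPM per kb of merged exons (log axis) for TMA-ARB (filled points) and control tumours (open squares, n = 5 each), ordered by the control mean. Cldn5 is highest in both groups, and Prox1 is lowest.

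None of the members passed the test. The expression filter kept 37 of the 38 (Prox1 was left out), and edgeR's quasi-likelihood test with Benjamini-Hochberg adjustment called 0 of 37, against 0 of 14063 genes over the whole table (0%), where the smallest adjusted p was 0.997. At an unadjusted p under 0.05, 6 members were lower in TMA-ARB tumours (Aqp1, Angpt2, S1pr1, Flt1, Plvap and Apln), where 1.66% of all tested genes were, and 0 were higher, where 1.59% of all were. Over all tested genes 457 had such a p. DESeq2 and limma-voom gave 7 and 8 members with an unadjusted p under 0.05 and called 0 of them as well. Such a p was held by 826 of 23981 genes with DESeq2 and by 1397 of 14063 with limma-voom. DESeq2 added Vwf to the 6, and limma-voom lost Flt1 and added Cdh5, Eng and Mcam. The 6 became 2 when control tumour 2 was left out, where 224 of all 14343 genes had such a p. Among the tumours below a 5% mitochondrial share 4 members were lower and 3 higher at that p, and among those above it 10 were lower and 0 higher. In either direction, 1194 of all 14637 genes had that p below the line and 1074 of 14834 above it.

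The fold changes of TMA-ARB over control lay below 0 for 28 of 37 members, where 47.2% of all tested genes did. Their median was -0.26 on the log2 scale, against 0.02 over all tested genes, and it was -0.26 with RLE and -0.27 with upper-quartile scaling. Split at a mitochondrial share of 5%, the tumours gave a median of -0.13 on the low side, with 22 of 37 members below 0. On the high side it was -0.40, with 31 of 37, and it was -0.20 with that share as a covariate. Over all tested genes the medians of those 3 fits were -0.00048, 0.0090 and -0.0030. Single members ran from -1.43 for Aqp1 to 1.63 for Aplnr, with standard errors of 0.162 to 0.867. Groups that did not overlap were found for 1 member lower in TMA-ARB tumours, S1pr1 (0.363% of all tested genes), and for 0 members higher (0.164% of all). Members were chosen with earlier results of these data known, so these shares and medians were not tested.

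**Figure D2:**
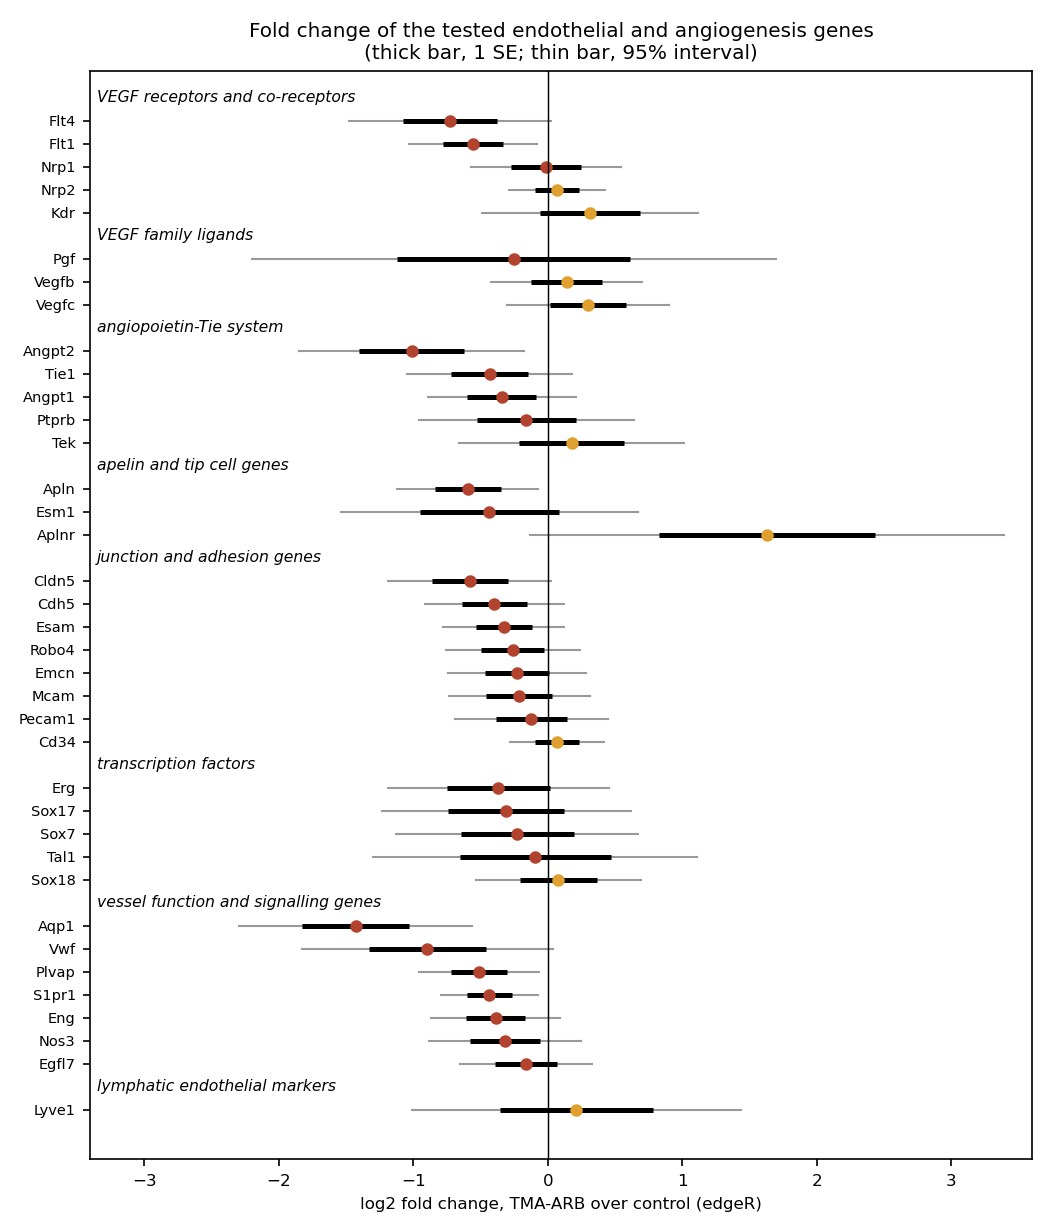
Log2 fold change of TMA-ARB over control for the 37 tested members, grouped by role, with points for the edgeR estimate, thick bars for 1 SE and thin bars for its 95% interval. Of the points, 28 lie left of 0 and 9 right of it, from -1.43 for Aqp1 to 1.63 for Aplnr, and the thin bars of 6 members, all left of 0, do not reach 0.

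Of the 3 VEGF ligands among the members, 1 lay below and 2 above 0. Vegfc, the ligand that drives lymphatic growth through Flt4, was measured at 36.5, 35.9, 65.2, 76.8 and 54.0 CPM in TMA-ARB tumours and at 29.1, 34.5, 73.0, 35.3 and 46.2 CPM in control tumours. The groups overlapped over nearly their whole range (log2 fold change 0.30 ± 0.28 SE, unadjusted p = 0.307), and the difference was -0.01 among tumours below and 0.26 among those above a 5% mitochondrial share. Pgf, placental growth factor, a ligand of Flt1, varied most among the ligands. It stood at 3.51, 8.03, 94.0, 20.4 and 28.0 CPM in TMA-ARB and at 13.7, 96.4, 34.7, 17.8 and 20.4 CPM in control tumours. One tumour of each group was far above its others, and the fold change of -0.25 ± 0.87 ran from -1.30 without TMA-ARB tumour 8 to 0.50 without control tumour 2. Vegfb, a further Flt1 ligand linked to fatty acid handling, ranged from 22.5 to 58.4 CPM in TMA-ARB and from 24.1 to 39.9 CPM in control tumours (0.14 ± 0.26).

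Among the VEGF receptors, Flt1 lay lower in TMA-ARB tumours with an unadjusted p under 0.05 by edgeR but not by limma-voom (-0.36, unadjusted p = 0.0713), and Kdr did not differ beyond its spread. Flt1 encodes VEGF receptor 1, which binds ligand tightly, signals weakly and also exists as a soluble trap. It was measured at 33.2, 38.6, 68.6, 55.5 and 62.5 CPM in TMA-ARB tumours and at 57.3, 84.8, 90.0, 82.1 and 65.4 CPM in control tumours. TMA-ARB tumours 6, 7 and 9 lay below all control tumours, and tumours 8 and 10 lay within the control range. The means were 51.7 ± 15.3 and 75.9 ± 13.9 CPM in TMA-ARB and control tumours (SD, n = 5 each), a log2 fold change of -0.56 ± 0.22 (95% interval -1.03 to -0.08, edgeR unadjusted p = 0.0248), and it kept its sign on both sides of the 5% mitochondrial line (-0.95 below, -0.48 above).

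Kdr, VEGF receptor 2, the main signalling receptor for vessel growth, was spread widely under TMA-ARB. It had 31.9, 26.1, 4.95, 13.6 and 16.8 CPM in TMA-ARB tumours and 16.0, 16.3, 15.3, 10.7 and 16.8 CPM in control tumours. The same TMA-ARB tumours, 6 and 7, that were lowest for Flt1 were highest for Kdr, and TMA-ARB tumour 8 was lowest for Kdr and highest of its group for Flt1. The fold change was 0.32 ± 0.37 (95% interval -0.49 to 1.12), 0.04 without TMA-ARB tumour 6, and 0.83 below against -0.15 above the 5% mitochondrial line. Flt4, VEGF receptor 3, the receptor for Vegfc on lymphatic and sprouting endothelium, had 8.78, 6.97, 3.69, 3.90 and 9.46 CPM in TMA-ARB and 6.25, 15.4, 15.0, 9.76 and 7.95 CPM in control tumours. The groups overlapped (-0.72 ± 0.35, unadjusted p = 0.0578). The co-receptors Nrp1 and Nrp2, which bind VEGF and semaphorins and are also made by other stromal cells, had 95% intervals of -0.57 to 0.54 and -0.28 to 0.42 around fold changes of -0.01 and 0.07.

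**Figure D3:**
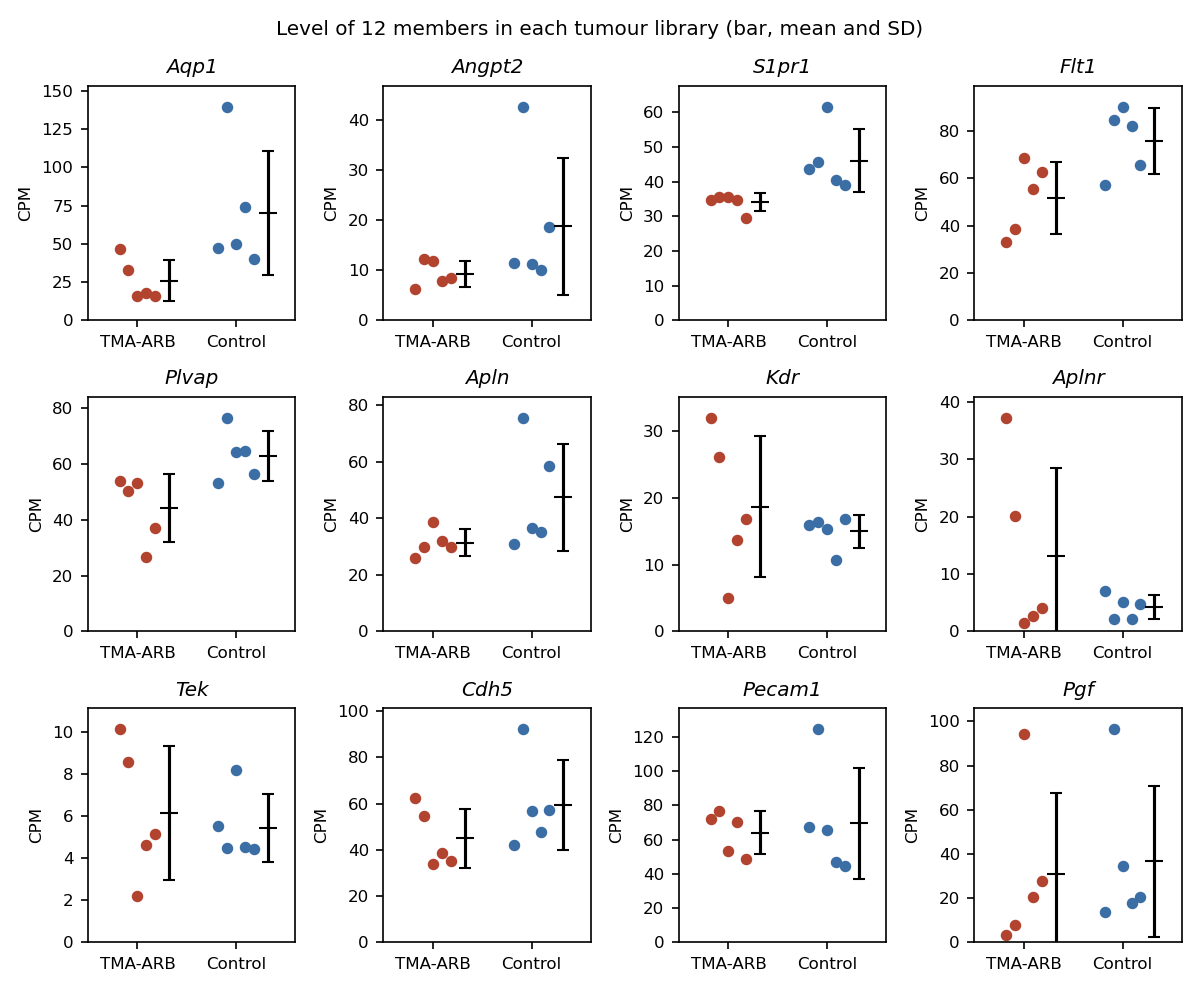
CPM of 12 members in each tumour (points), with the group mean and SD (bars), TMA-ARB left of control, n = 5 each. The TMA-ARB points of S1pr1 all lie under the control points, those of Flt1 and Aqp1 overlap them, and the lower SD bars of Aplnr and Pgf in TMA-ARB tumours would pass below 0 and are cut off there.

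In the angiopoietin and Tie system 4 of 5 members lay below 0, with a median of -0.34. Angpt2, which sprouting endothelium releases and which can block Tie2, was at 6.24, 12.2, 11.7, 7.89 and 8.51 CPM in TMA-ARB and at 11.5, 42.5, 11.2, 10.0 and 18.7 CPM in control tumours. Control tumour 2 stood far above the rest, and the remaining tumours of both groups overlapped. The fold change of -1.01 ± 0.39 (95% interval -1.85 to -0.18, unadjusted p = 0.0212) was -0.47 without control tumour 2.

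Angpt1, the activating Tie2 ligand made by mural and other stromal cells, had 29.7, 47.5, 67.7, 37.4 and 31.4 CPM in TMA-ARB and 39.3, 77.5, 42.2, 61.4 and 50.5 CPM in control tumours. These overlapped (-0.34 ± 0.26, unadjusted p = 0.202, and -0.18 without control tumour 2). Tek, the gene of the receptor Tie2, had 10.1, 8.55, 2.22, 4.61 and 5.14 CPM in TMA-ARB and 5.52, 4.49, 8.17, 4.52 and 4.43 CPM in control tumours. As for Kdr, TMA-ARB tumours 6 and 7 were the highest and tumour 8 the lowest. Its fold change was 0.18 ± 0.39, and -0.077 without TMA-ARB tumour 6. Tie1, the co-receptor of Tie2, and Ptprb, the phosphatase that quiets Tie2, gave -0.43 ± 0.29 (-0.26 without TMA-ARB tumour 9) and -0.16 ± 0.37 (0.060 without control tumour 2).

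Apelin and its receptor lay on opposite sides of 0. Apln, a peptide that sprout-leading tip cells release, was at 26.1, 29.9, 38.9, 32.1 and 29.8 CPM in TMA-ARB tumours and at 31.0, 75.3, 36.7, 35.2 and 58.6 CPM in control tumours. Control tumours 2 and 5 stood above all others, and the rest overlapped. The fold change was -0.60 ± 0.25 (95% interval -1.12 to -0.07, unadjusted p = 0.0293) and -0.37 without control tumour 2. Aplnr, the apelin receptor of veins and growing vessels, had 37.1, 20.1, 1.55, 2.67 and 4.05 CPM in TMA-ARB and 6.97, 2.24, 5.10, 2.15 and 4.73 CPM in control tumours. TMA-ARB tumours 6 and 7 lay above every control tumour and the other three within or below the control range, so the fold change of 1.63 ± 0.80 (95% interval -0.13 to 3.39, unadjusted p = 0.0666) was 0.75 without TMA-ARB tumour 6, and was 2.64 below and -0.41 above the 5% mitochondrial line. Esm1, a secreted proteoglycan of tip cells, ranged from 1.03 to 3.22 CPM in TMA-ARB and from 0.719 to 6.13 CPM in control tumours (-0.43 ± 0.51, and -0.096 without control tumour 5).

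Of the 8 junction and adhesion genes, 7 lay below 0 with a median of -0.24, and none had an unadjusted p under 0.05 with edgeR. With limma-voom, Cdh5 (-0.54, unadjusted p = 0.0183) and Mcam (-0.43, unadjusted p = 0.0451) had one. That fit weighted the tumours, at 0.43, 0.35, 0.90, 0.87 and 2.38 for TMA-ARB and 1.05, 0.83, 1.36, 1.18 and 2.53 for control. Cdh5, VE-cadherin, which holds endothelial cells together at adherens junctions, had 62.3, 54.8, 34.1, 38.7 and 35.3 CPM in TMA-ARB and 42.3, 92.1, 56.9, 47.8 and 57.3 CPM in control tumours. TMA-ARB tumours 8, 9 and 10 lay under all control tumours, and tumours 6 and 7 did not. The fold change was -0.40 ± 0.24 (unadjusted p = 0.124), -0.18 without control tumour 2, and -0.13 below and -0.55 above the 5% mitochondrial line. Pecam1, CD31, an adhesion molecule of all endothelium and also of platelets and some leukocytes, had 72.1, 76.4, 53.3, 70.1 and 48.4 CPM in TMA-ARB and 67.4, 124, 65.4, 46.7 and 44.4 CPM in control tumours. These overlapped throughout (-0.12 ± 0.27, unadjusted p = 0.657), and the fold change was 0.19 without control tumour 2.

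Cldn5, the claudin of endothelial tight junctions, had 25.0, 38.4, 47.9, 44.8 and 49.8 CPM in TMA-ARB and 54.5, 51.4, 89.0, 83.6 and 29.3 CPM in control tumours. All TMA-ARB tumours lay under control tumours 1 to 4, and control tumour 5 lay among them (-0.58 ± 0.28, unadjusted p = 0.0599). The other five were Esam, an adhesion molecule of tight junctions (-0.33 ± 0.21), Mcam, CD146, which mural cells also carry (-0.21 ± 0.24), Emcn, a sialomucin of capillaries and veins (-0.23 ± 0.24), Robo4, a receptor that steadies the vessel wall (-0.26 ± 0.23), and Cd34, a sialomucin also found on fibroblasts and progenitors (0.07 ± 0.16). Leaving out 1 tumour moved Esam to -0.22 (without control tumour 3), Mcam to -0.093 (without control tumour 2), Emcn to -0.075 (without TMA-ARB tumour 9) and Robo4 to -0.14 (without TMA-ARB tumour 8).

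The 5 transcription factors of endothelial identity had no unadjusted p under 0.05 with edgeR, and all but Sox18 (8.93 CPM per kb in TMA-ARB and 8.46 CPM per kb in control tumours) stood under 2 CPM per kb in both groups. Erg, an ETS factor that keeps up endothelial genes, had a fold change of -0.37 ± 0.38 (-0.21 without TMA-ARB tumour 8) with a mean per length of 1.29 CPM per kb in TMA-ARB and 1.67 CPM per kb in control tumours. The SOXF factors, which act in arterial and lymphatic fate, gave -0.23 ± 0.42 for Sox7 (0.077 without control tumour 3), -0.31 ± 0.43 for Sox17 (-0.17 without control tumour 3) and 0.08 ± 0.29 for Sox18. Tal1, a factor of blood and endothelial progenitors, gave -0.09 ± 0.56, with a 95% interval of -1.30 to 1.11. Sox17 and Tal1 each lay under 5 CPM in all 10 tumours.

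All 7 genes of vessel wall function lay below 0, with a median of -0.44, and 3 of them (Aqp1, S1pr1 and Plvap) had an unadjusted p under 0.05. Aqp1, a water channel of vascular endothelium and of red cells, was at 46.8, 33.0, 16.3, 18.2 and 15.9 CPM in TMA-ARB tumours and at 47.6, 139, 49.9, 74.2 and 39.9 CPM in control tumours. Only TMA-ARB tumour 6 reached into the control range, and control tumour 2 was the highest. The means were 26.0 ± 13.6 and 70.2 ± 40.7 CPM in TMA-ARB and control tumours (SD, n = 5 each), a log2 fold change of -1.43 ± 0.40 (95% interval -2.30 to -0.56, unadjusted p = 0.00365). It was -1.02 without control tumour 2, and -0.93 below and -1.89 above the 5% mitochondrial line. Above the line Aqp1 was 1 of 4 genes called among 14834 (edgeR adjusted p = 0.0362, 3 TMA-ARB against 2 control tumours). Below it 0 of 14637 were called, and the smallest edgeR adjusted p of any member was 0.107. No member was called under any other alternative. Summed red cell markers stood at 93.6, 462, 473, 215 and 167 CPM in TMA-ARB and 345, 1442, 169, 329 and 214 CPM in control tumours. Control tumour 2 was highest in both, while TMA-ARB tumour 6, highest of its group for Aqp1, was lowest for the red cell sum, and the part of red cells in the Aqp1 values was not tested.

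S1pr1, the sphingosine-1-phosphate receptor that tightens the endothelial barrier and is also on lymphocytes, had 34.8, 35.7, 35.6, 34.7 and 29.5 CPM in TMA-ARB and 43.7, 45.7, 61.4, 40.3 and 39.1 CPM in control tumours. Every TMA-ARB tumour lay under every control tumour. The fold change was -0.44 ± 0.17 (95% interval -0.80 to -0.07, unadjusted p = 0.0215), between -0.28 below and -0.62 above the 5% mitochondrial line, and -0.31 without control tumour 3. The 8 T cell markers, which summed to 8.57 to 18.2 CPM in TMA-ARB and 12.8 to 23.6 CPM in control tumours, were all below 0 too, and their part in the S1pr1 values was not tested.

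Plvap, which forms the diaphragms of fenestrated and leaky vessels, had 54.0, 50.3, 53.3, 26.5 and 37.0 CPM in TMA-ARB and 53.2, 76.3, 64.4, 64.6 and 56.5 CPM in control tumours. TMA-ARB tumours 6 and 8 lay just above the lowest control tumour, and the other three lay below all control tumours. The fold change was -0.51 ± 0.21 (95% interval -0.95 to -0.06, unadjusted p = 0.0279). Eng, endoglin, a co-receptor for TGF-beta and BMP ligands, had 35.9, 26.7, 22.5, 18.7 and 18.1 CPM in TMA-ARB and 31.5, 41.8, 28.9, 24.6 and 32.8 CPM in control tumours. TMA-ARB tumours 8, 9 and 10 lay under all control tumours (-0.39 ± 0.22, unadjusted p = 0.102), as they did for Cdh5. These are the TMA-ARB tumours above the 5% mitochondrial line, and the fold change of Eng was -0.17 below and -0.44 above it. Vwf, the clotting factor stored in endothelium and platelets, had 3.21, 1.51, 2.29, 2.77 and 3.58 CPM in TMA-ARB and 5.06, 10.2, 2.68, 4.09 and 2.85 CPM in control tumours. The groups overlapped, and the fold change of -0.89 ± 0.43 (unadjusted p = 0.0584) was -0.46 without control tumour 2. Nos3, endothelial nitric oxide synthase, and Egfl7, a secreted protein of growing vessels, gave -0.32 ± 0.26 (-0.16 without TMA-ARB tumour 8) and -0.16 ± 0.23 (-0.029 without TMA-ARB tumour 9).

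**Figure D4:**
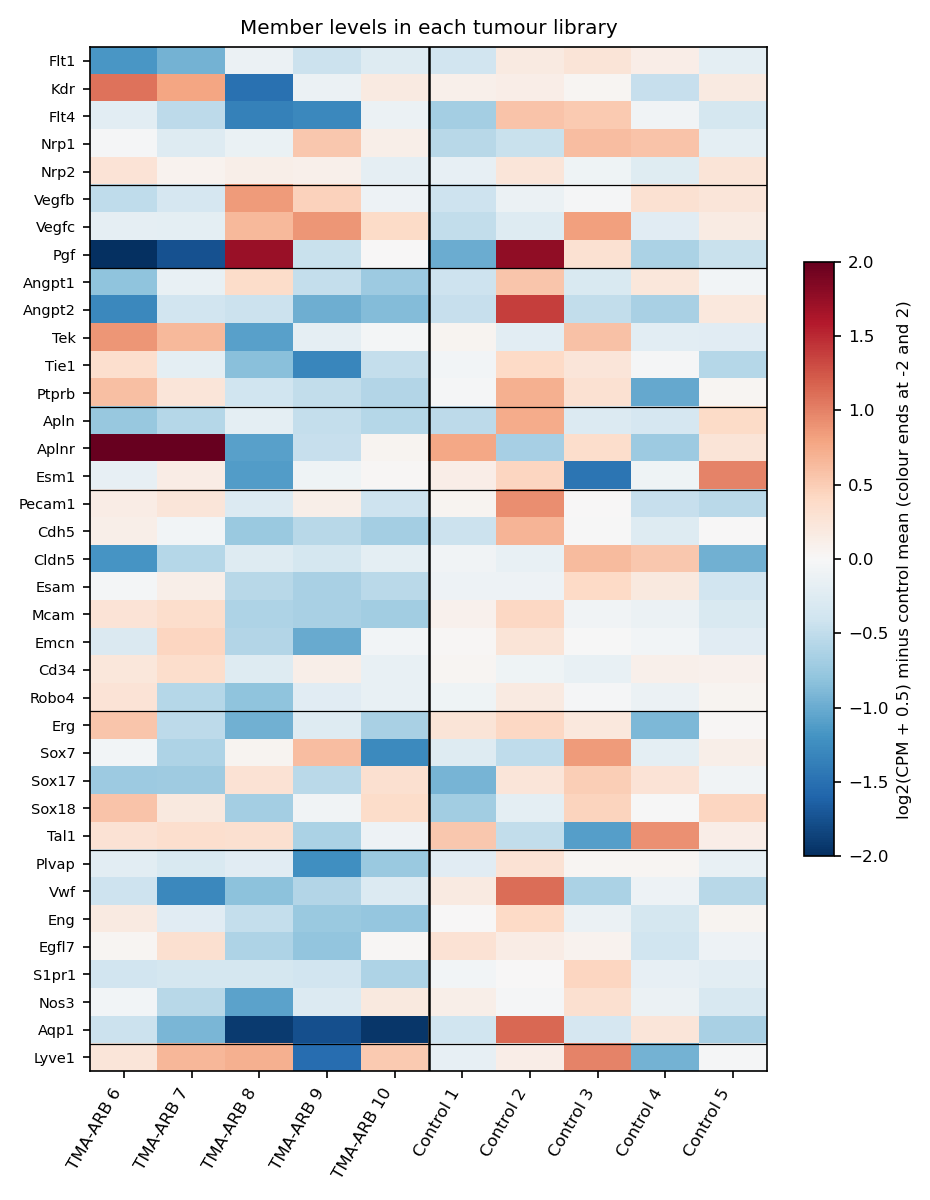
Each tested member in each of the 10 tumours, as log2(CPM + 0.5) minus the gene's control mean, with the colour scale ending at -2 and 2, TMA-ARB tumours 6 to 10 left of control tumours 1 to 5. Control tumour 2 stands high for many members, among them Aqp1, Angpt2 and Vwf, and TMA-ARB tumours 6 and 7 stand high for Kdr, Tek and Aplnr.

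The lymphatic markers were low and uneven. Lyve1, a hyaluronan receptor of lymphatic endothelium and some macrophages, had 2.60, 3.62, 3.77, 0.41 and 3.24 CPM in TMA-ARB and 1.84, 2.36, 4.71, 0.861 and 2.06 CPM in control tumours. The groups overlapped, and the fold change of 0.21 ± 0.57 ran from 0.0053 without control tumour 4 to 0.62 without control tumour 3. Prox1 had 3, 0, 3, 0 and 3 counts in TMA-ARB and 0, 0, 31, 0 and 2 counts in control tumours, so that control tumour 3 held most of its counts. The lymphatic chemokine gene Ccl21a, whose reads may be shared with close copies, followed with 0, 2, 43, 4 and 443 counts in TMA-ARB and 0, 0, 581, 0 and 0 counts in control tumours. Prox1 and Ccl21a thus shared their highest library, control tumour 3, but TMA-ARB tumour 10, second for Ccl21a, held only 3 Prox1 counts.

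Relative to the 5 defining genes, Aqp1 stood lower, and where the other members lay depended on the genes they were set against. For each tumour the log2 ratio of a member to the summed CPM of the defining genes was taken, after adding 0.5 CPM, with a defining gene set against the other four. Of 37 members, 18 were higher and 19 lower in TMA-ARB tumours, with a median difference of -0.02. Set against Cdh5 alone, 24 of 36 were higher and 12 lower, with a median of 0.099. The ratio of Aqp1 to the 5 defining genes was -2.38, -2.95, -3.25, -3.16 and -3.39 in TMA-ARB tumours and -2.19, -1.30, -2.33, -1.50 and -2.22 in control tumours. These did not overlap, and the means differed by -1.12 (range -1.28 to -0.97 with 1 tumour left out at a time). Against Cdh5 alone the difference was -1.01, and the groups overlapped. Beside Aqp1, 3 members differed by more than the pooled SD of their groups, namely Flt4 (-0.42), Nrp2 (0.35) and Cd34 (0.33), and each of these overlapped. Flt1 differed by -0.31, Angpt2 by -0.51 and Kdr by 0.36, each less than its pooled SD of 0.58 to 0.60. The ratio was not taken for genes other than members. No share over all tested genes therefore stands beside the counts of members that did not overlap or passed their pooled SD.

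**Figure D5:**
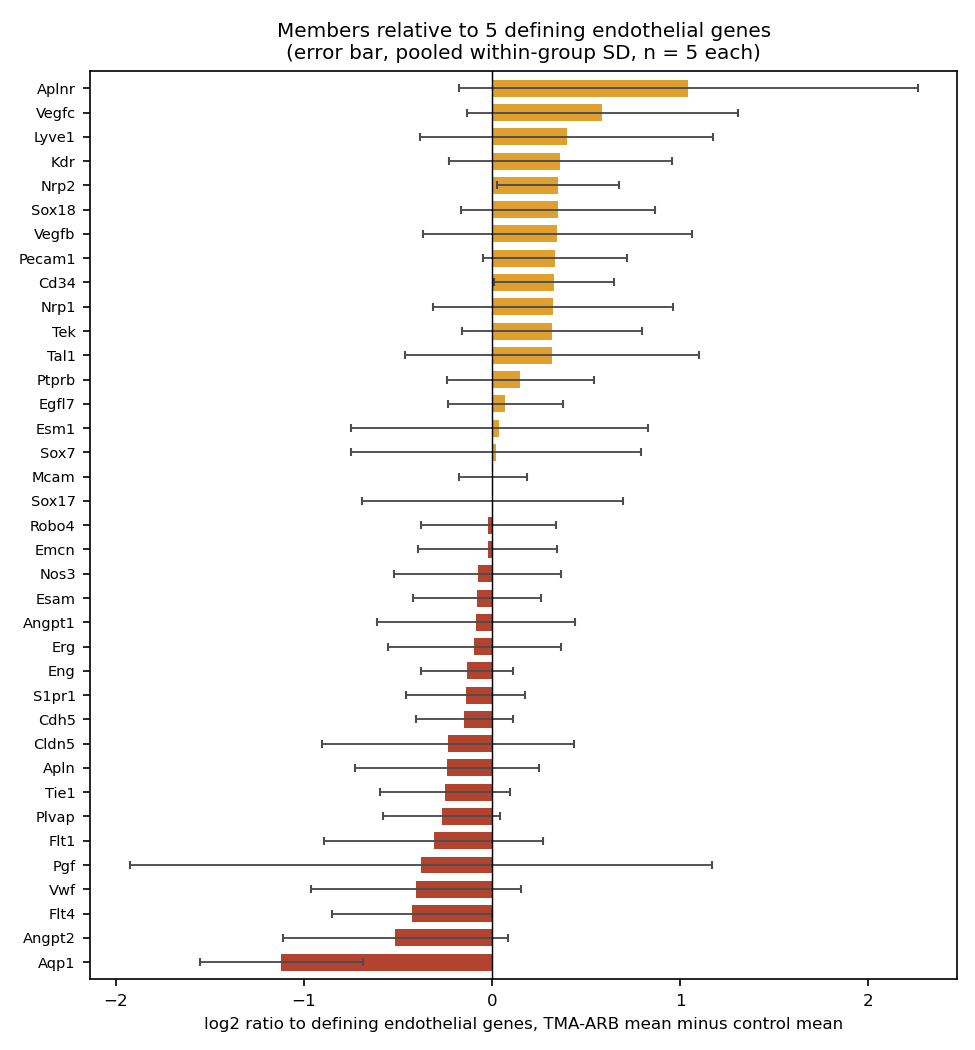
TMA-ARB minus control difference of the log2 ratio of each tested member to the summed defining endothelial genes (bars), with the pooled SD of the groups as error bars (n = 5 each). The bars lie on both sides of 0 (18 higher, 19 lower), and Aqp1, at -1.12, lies furthest below it.

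Across the 10 tumours, 30 of 36 members were positively correlated with Cdh5, with a median Pearson r of 0.48, against 50.7% of all other tested genes with a median r of 0.01. These are correlations of log2 CPM between genes of the same libraries, which share depth and scaling. Eng passed adjustment over the 36 correlations by both measures (r = 0.86, permutation p = 0.00125, adjusted 0.0353; Spearman rho = 0.89, p = 0.00111, adjusted 0.0400). Aqp1 passed by Pearson's r alone (r = 0.85, permutation p = 0.00196, adjusted 0.0353; rho = 0.70, p = 0.0301, adjusted 0.155). Mcam likewise passed by r alone (r = 0.81, permutation p = 0.00415, adjusted 0.0498; rho = 0.75, p = 0.0177, adjusted 0.120).

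Without the 2 tumours farthest from the median of Cdh5, control tumour 2 and TMA-ARB tumour 8, r was 0.82 for Eng, 0.64 for Aqp1 and 0.72 for Mcam. With each group's mean removed r was 0.82, 0.85 and 0.78 for those genes, and 0 of 36 passed adjustment. With Pecam1 in the place of Cdh5, 27 of 36 were positive with a median r of 0.24, and 0 of 36 passed. Of all other tested genes 48.3% were positive with Pecam1, with a median r of -0.02. Flt1 varied apart from Cdh5 (r = 0.06), and Vegfb, which many other cells make, had the lowest r (-0.46). The tumours on either side of a 5% mitochondrial share numbered 5 each, too few for an r within them.

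The start regions of Aqp1, Eng, Flt1 and Kdr are shown because Aqp1 and Flt1 lay lower in TMA-ARB tumours, Eng varied most closely with Cdh5, and Kdr did not follow Flt1. The genes lie at chr6:55336432-55348555 (Aqp1), chr2:32646595-32682669 (Eng), chr5:147561604-147726011 (Flt1) and chr5:75932827-75978458 (Kdr) in GENCODE. Each sequence is the 250 bases before the RefSeq start in GRCm38.p6, 5′ to 3′ on the gene's strand, with the ETS motifs AGGAAG and CGGAAG in capitals, read on both strands. ETS factors such as Erg bind a GGAA core.
Aqp1: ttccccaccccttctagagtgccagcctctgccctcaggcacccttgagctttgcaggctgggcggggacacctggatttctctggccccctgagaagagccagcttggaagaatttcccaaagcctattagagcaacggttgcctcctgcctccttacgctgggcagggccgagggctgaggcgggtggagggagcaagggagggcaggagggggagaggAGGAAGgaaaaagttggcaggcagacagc
Eng: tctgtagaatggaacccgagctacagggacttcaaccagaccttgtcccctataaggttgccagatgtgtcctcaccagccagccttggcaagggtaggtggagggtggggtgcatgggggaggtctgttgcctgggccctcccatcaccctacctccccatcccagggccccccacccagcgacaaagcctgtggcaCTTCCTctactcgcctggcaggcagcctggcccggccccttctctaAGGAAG
Flt1: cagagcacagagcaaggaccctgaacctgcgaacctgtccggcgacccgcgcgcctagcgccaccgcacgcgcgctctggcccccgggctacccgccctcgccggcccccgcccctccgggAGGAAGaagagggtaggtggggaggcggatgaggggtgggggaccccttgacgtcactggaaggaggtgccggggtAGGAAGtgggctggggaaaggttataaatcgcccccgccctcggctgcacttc
Kdr: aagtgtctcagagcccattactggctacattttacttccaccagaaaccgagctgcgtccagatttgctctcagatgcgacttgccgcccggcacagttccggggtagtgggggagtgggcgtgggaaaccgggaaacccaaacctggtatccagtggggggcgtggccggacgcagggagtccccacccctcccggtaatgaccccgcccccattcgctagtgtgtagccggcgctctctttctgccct
Aqp1 held 1 such motif, Eng and Flt1 held 2 each, and Kdr held 0. RefSeq start regions were found for 23 of the 38 members, in 30 regions because some genes have several starts. AGGAAG or CGGAAG, which overlap in GGAAG, was in 40.0% of these 30 regions (10 of the 23 genes), against 39.2% of all 32851 start regions. AGGAAG alone was in 40.0% of the members' regions and 29.5% of all, and CGGAAG in 3.33% and 13.6%. The SOX motif AACAAT was in 10.0% of the members' regions and 9.42% of all, and the TAL1 motif CAGATG in 16.7% and 14.4%, with Eng and Kdr among the 5 genes that held it. The hypoxia motif ACGTG was in 0 of the 30 regions and in 16.6% of all. These are matches of letters within 250 bases and not measured sites.

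The neighbouring pathways were described by lists of their textbook members, and edgeR called 0 genes in each. Of the Notch and arterial list, 11 of 14 tested genes lay below 0 (median -0.25). Its only gene with an unadjusted p under 0.05 was Dll4, the Notch ligand of tip cells, at 14.9 ± 2.04 CPM in TMA-ARB and 20.8 ± 4.92 CPM in control tumours (-0.48 ± 0.21, unadjusted p = 0.0363). Jag2, another Notch ligand, gave -0.75 ± 0.36, while the arterial connexins Gja4 and Gja5 gave 0.25 ± 0.46 and 0.28 ± 1.04.

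Among inhibitors and feedback genes of angiogenesis, 14 of 19 lay below 0 (median -0.15). Adamts1, a secreted protease that can restrain angiogenesis, averaged 36.5 ± 5.19 CPM in TMA-ARB and 70.8 ± 21.8 CPM in control tumours without overlap (-0.96 ± 0.21, edgeR unadjusted p = 0.000415, not called). It was the only 1 of the 19 without overlap, where 0.363% of all tested genes were lower without overlap. Col18a1, the collagen from which endostatin is cut, averaged 623 ± 158 and 853 ± 231 CPM in TMA-ARB and control tumours (-0.45 ± 0.23), and Sema3e, a repulsive guidance signal, 8.40 ± 2.41 and 5.57 ± 1.61 CPM (0.59 ± 0.31). Thbs2, a matrix inhibitor of vessel growth, gave 0.82 ± 0.62.

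Downstream of the VEGF receptors 18 of 21 genes lay below 0 (median -0.13). The phospholipase gene Plcg2, mostly of immune cells, was at 23.6 ± 11.8 CPM in TMA-ARB and 37.7 ± 7.27 CPM in control tumours (-0.67 ± 0.28, unadjusted p = 0.0313). The PI3-kinase subunit Pik3r1 gave -0.41 ± 0.23, the catalytic subunit Pik3ca 0.15 ± 0.26 and the kinase Prkca 0.12 ± 0.19.

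The other lists lay nearer to 0. Of 20 other endothelial markers 12 lay below 0 (median -0.08), with Mmrn2, a matrix protein of endothelium, at -0.45 ± 0.22, Gpihbp1, which anchors lipoprotein lipase on capillaries, at -0.43 ± 0.29, Calcrl, the adrenomedullin receptor, at 0.35 ± 0.30 and the lectin Clec14a at 0.44 ± 0.45. Of 16 further endothelial transcription factors 10 did (median -0.05), from Lmo2, a partner of TAL1, at -0.53 ± 0.28 and Ets2 at -0.25 ± 0.19 to Klf4, a flow-responsive factor, at 0.38 ± 0.35 and Foxf1 at 0.15 ± 0.23. The BMP and ALK1 list had 8 of 11 below 0 (median -0.09), with Acvrl1, the ALK1 receptor itself, at -0.54 ± 0.31, the target gene Id3 at -0.35 ± 0.17, Smad1 at 0.18 ± 0.26 and Bmp4 at 0.25 ± 0.39.

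Genes of activated endothelium split 6 of 11 (median -0.02), with tissue factor F3 at -0.17 ± 0.50, Mmp9 at 0.81 ± 1.26 and Plaur at 0.12 ± 0.29. Of 5 further lymphatic markers tested 4 lay below 0 (median -0.05), among them the integrin Itga9 at -0.29 ± 0.22 and the chemokine scavenger Ackr2 at -0.55 ± 0.91, and Stab1, also a macrophage gene, lay at 0.15 ± 0.22.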

How the data were processed

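Per the authors' deposited file, each tumour has a column of estimated counts per Ensembl gene. Salmon and mm10 are named in the submitters' processing notes, and the Salmon version, annotation and strand setting are not given in the sources used here. Per the labels' protocols, poly-A RNA went into strand-marking NEBNext libraries. All deposited values were whole, so rounding changed none. Genes were matched by name, and 3 list genes by Ensembl ID.

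Counts were tested here with edgeR 4.0.16 in R 4.3.3 (TMM, default expression filter, robust quasi-likelihood F test, Benjamini-Hochberg at 0.05) over all genes. CPM uses TMM-scaled library sizes, and lengths are merged exons of GENCODE M21. The script was tested on simulated data. Alternatives were DESeq2 1.42.0, limma-voom 3.58.1 with sample weights, RLE and upper-quartile scaling, other filters, the mitochondrial share, and leaving out each tumour. Correlations used 100000 permutations, and SciPy 1.17.1 gave the exact permutation test of the mitochondrial share. Groups came from the titles, and the labels give no batch.

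All members are given, the 12 of smallest p and 10 set members by tumour. From each pathway list, the 2 genes of smallest p per direction are named, except a gene that is not reported here. Members and lists were chosen with earlier results of these data known.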

Additional observations from a re-analysis of the deposited data

Results flagged for a closer look

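In groups of 5, the highest or lowest tumour was flagged where its gap to the nearest other tumour passed 0.71 of the group's whole range. This held in 7 of the 76 groups examined (38 members in TMA-ARB and in control tumours). Chance flags about 1 in 20 groups where values are normally distributed. The rule was used on untransformed CPM, which may not be so distributed, and not on other genes, so 7 of 76 was not compared with chance. Control tumour 2 was the highest of its group for Angpt2, at 42.5 CPM (next 18.7), for Pecam1, at 124 CPM (next 67.4), and for Pgf, at 96.4 CPM (next 34.7). For Pgf, TMA-ARB tumour 8 also stood above its group, at 94.0 CPM (next 28.0). Control tumour 3 held the highest Prox1 level of its group, 2.03 CPM (next 0.121). Control tumour 4 was the lowest of its group for Kdr, at 10.7 CPM (next 15.3). TMA-ARB tumour 10 was the lowest of its group for S1pr1, at 29.5 CPM (next 34.7).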

How the results depend on the processing

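No paired analysis was possible because the TMA-ARB and control tumours share no replicate number. Over the whole table DESeq2 called 2 of 23981 genes, neither a member, against 0 with the main test. The tumours above a 5% mitochondrial share gave 4 called genes of 14834, 1 of them a member (Aqp1). With Pecam1 in place of Cdh5, 0 members passed the correlation test, against 3. The median log2 fold change of the other endothelial markers was 0.24 below a 5% mitochondrial share. That of the BMP and ALK1 list was -0.23 with the log2 mitochondrial share as covariate, -0.31 below and -0.24 above 5%.

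Some members, none of them called, took the opposite sign. With limma-voom these were Kdr (-0.076), Nrp1 (0.098), Nrp2 (-0.056), Tek (-0.089), Cd34 (-0.072), Sox17 (0.025), Sox18 (-0.00070) and Tal1 (0.044), and with RLE scaling Nrp1 (0.00082). With the mitochondrial covariate these were Vegfb (-0.20), Vegfc (-0.083), Ptprb (0.16), Pecam1 (0.090), Mcam (0.035), Tal1 (0.035) and Egfl7 (0.059). Below 5% these were Nrp1 (0.26), Vegfb (-0.36), Vegfc (-0.014), Tie1 (0.11), Ptprb (0.17), Esam (0.24), Mcam (0.22), Emcn (0.085), Tal1 (0.25) and Egfl7 (0.076). Above 5% these were Kdr (-0.15), Pgf (0.86), Tek (-0.68), Aplnr (-0.41), Esm1 (0.38), Pecam1 (0.019), Cd34 (-0.080), Sox18 (-0.33) and Lyve1 (-0.17). The cause was not tested.

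Leaving out 1 tumour at a time gave ranges across 0 for Nrp1 (-0.15 to 0.16), Vegfb (-0.097 to 0.28), Pgf (-1.30 to 0.50), Tek (-0.077 to 0.40), Ptprb (-0.40 to 0.060), Pecam1 (-0.25 to 0.19), Cd34 (-0.00092 to 0.15), Sox7 (-0.51 to 0.077), Sox18 (-0.065 to 0.24) and Tal1 (-0.34 to 0.26). Aqp1, Angpt2, S1pr1, Flt1, Plvap and Apln stayed below 0 under every alternative run. They were picked by their unadjusted p in these same tumours, so this was partly fixed in advance. Cdh5, Eng, Flt4 and Cldn5, among others, also stayed below 0 with each tumour left out in turn and on both sides of 5%.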
